A study of Mus musculus with 2 samples.

Results

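The core circadian clock of mouse hepatocytes was followed through 10 genes: the activators Arntl, Clock and Npas2, the period genes Per1, Per2 and Per3, the cryptochromes Cry1 and Cry2, and the Rev-erb genes Nr1d1 and Nr1d2. They were found by symbol among the 35129 gene symbols of the tables, and all 10 were present in both libraries. RNA sequencing was used to measure transcripts in primary hepatocytes, cells taken from the liver and cultured, of C57BL/6 mice. A culture infected with an adenovirus (Ad-KLF14) that expresses KLF14, a zinc finger transcription factor, was compared with a control culture labelled GFP (Ad-GFP), whose vector the series' design text calls empty. Both groups share strain, cell type and adenoviral infection. The animals' age and number, the hours after infection, the time of day of harvest and any synchronisation of the cultures are not given in the sources used here. Each group holds 1 library, so the conditions could not be tested, and the differences given here are differences of 2 libraries.

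In the clock loop, BMAL1, the protein of Arntl, pairs with CLOCK or with its paralog NPAS2, binds E-box sequences and switches on the Per, Cry and Rev-erb genes. PER and CRY proteins return to the nucleus and inhibit this pair, while REV-ERB proteins repress Arntl, Npas2 and other genes through their own binding sites. In the liver this loop times genes of glucose, lipid and bile acid metabolism over the day, and its own transcripts peak at different hours.

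Levels are given as FPKM, which divides the reads of a gene by its length in kilobases and by the library's reads in units of 1000000 and so allows levels of different genes to be set side by side. The libraries held 11151711 reads (Ad-KLF14) and 11311344 reads (Ad-GFP), recovered from the steps of the FPKM values. Klf14 stood at 13164 FPKM against 0.298 FPKM in the control. The hepatocyte marker Alb was at 4172 FPKM with Ad-KLF14 and 5115 FPKM in the control, and none of 7 hepatocyte markers was 2-fold apart. A gene counted as apart when log2(FPKM + 1) differed by at least 1, that is 2-fold on a scale that understates changes of low genes. By that rule 6.37% of the 12419 genes tested, those averaging 1 FPKM or more, were higher with Ad-KLF14 and 8.99% were lower, and the median difference was -0.03.

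Sequences before the transcription starts are shown for members that were higher with Ad-KLF14 (Per1, Cry1, Nr1d1), for the member that was lower (Npas2) and for Per3, the period gene that went the other way from its paralogs. Each run holds the 250 bases before a start in RefSeq's annotation of GRCm38.p6, 5′ to 3′ on the gene's strand. The build named for the deposited data is mm8, so these positions are not those of the authors' alignment. Capitals mark matches, on either strand, to the E-box CACGTG, the cAMP response core TGACG, the nuclear receptor hexamer AGGTCA, the D-box TTATGTAA or TTATGCAA, the GC box GGGCGG and the CACCC box CACCC, where KLF and SP proteins are known to bind GC and CACCC boxes.
Per1 first start, chr11:69098699-69098948, plus strand: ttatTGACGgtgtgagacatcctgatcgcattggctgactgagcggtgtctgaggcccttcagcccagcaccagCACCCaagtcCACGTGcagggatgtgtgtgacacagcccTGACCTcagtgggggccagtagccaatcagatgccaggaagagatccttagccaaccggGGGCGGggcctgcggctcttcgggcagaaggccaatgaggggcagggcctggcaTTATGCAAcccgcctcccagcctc
Per1 second start, chr11:69099902-69100151, plus strand: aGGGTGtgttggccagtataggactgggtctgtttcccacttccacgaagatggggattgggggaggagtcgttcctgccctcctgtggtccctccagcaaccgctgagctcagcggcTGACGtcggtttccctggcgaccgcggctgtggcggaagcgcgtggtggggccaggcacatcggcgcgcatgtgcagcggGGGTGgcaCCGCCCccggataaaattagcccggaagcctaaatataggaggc
Cry1, chr10:85185055-85185304, minus strand: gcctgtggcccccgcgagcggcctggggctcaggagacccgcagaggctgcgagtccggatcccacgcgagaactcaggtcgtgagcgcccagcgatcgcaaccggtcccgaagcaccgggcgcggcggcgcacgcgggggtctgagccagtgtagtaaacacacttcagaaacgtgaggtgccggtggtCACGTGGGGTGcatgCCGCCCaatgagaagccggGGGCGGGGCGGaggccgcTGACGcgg
Nr1d1, chr11:98775378-98775627, minus strand: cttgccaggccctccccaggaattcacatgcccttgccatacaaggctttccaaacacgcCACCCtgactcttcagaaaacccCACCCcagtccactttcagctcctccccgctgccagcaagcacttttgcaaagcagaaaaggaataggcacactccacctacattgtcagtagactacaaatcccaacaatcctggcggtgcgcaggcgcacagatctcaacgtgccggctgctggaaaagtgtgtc
Per3, chr4:151044666-151044915, minus strand: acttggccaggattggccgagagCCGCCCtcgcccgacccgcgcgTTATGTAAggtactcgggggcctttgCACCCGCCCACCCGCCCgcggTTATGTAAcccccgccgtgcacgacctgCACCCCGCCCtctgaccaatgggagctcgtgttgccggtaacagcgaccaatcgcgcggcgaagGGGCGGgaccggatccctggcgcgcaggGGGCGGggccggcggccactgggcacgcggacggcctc
Npas2, chr1:39194022-39194271, plus strand: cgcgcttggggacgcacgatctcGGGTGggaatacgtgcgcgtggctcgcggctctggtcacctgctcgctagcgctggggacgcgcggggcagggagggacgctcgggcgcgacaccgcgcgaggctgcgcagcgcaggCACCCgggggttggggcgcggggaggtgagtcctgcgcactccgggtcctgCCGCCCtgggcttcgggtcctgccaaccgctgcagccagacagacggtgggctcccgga

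The table of starts held 13 windows for 9 of the 10 members, and Per2 was not matched. The E-box was found in Per1, 166 to 161 bases before its first start, and in Cry1, 60 to 55 bases before the start, against 6.02% of 32851 windows of the same length over all genes. The other 7 matched members, Nr1d1 and Npas2 among them, had no CACGTG in these 250 bases. The D-box stood in Per3 as TTATGTAA at 205 to 198 and again at 158 to 151 bases before the start, a sequence held by 0.819% of all windows, and in Per1 as TTATGCAA at 24 to 17 bases (0.694%). The full cAMP response element TGACGTCA was in 0 of the 13 windows and in 1.55% of all windows, while its core TGACG was in 4 windows, those of both Per1 starts, Cry1 and Cry2 (17.8% of all windows). AGGTCA was in 3 windows, of Per1, Nr1d2 and the start of Clock farthest downstream (14.0% of all windows). With the 50 bases after the start included, a window length chosen after the data were seen, Arntl also held it, at bases 32 to 37 after its second start.

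GC boxes stood in 11 of the 13 windows, against 32.7% of all windows, and CACCC boxes in 10 of 13, against 52.0%. Counted by member, these were 8 of 9 and 7 of 9. Windows of the same gene are not independent, and the 2 windows of Arntl overlap and hold the same 2 GC boxes. Nr1d1 was the matched member with no GC box, and Cry2 (5 copies) and Per3 (6 copies) held the most. In Per3 some CACCC and GC boxes share bases. The GC content of the 13 windows ran from 49.2% to 77.6%, where the median of all windows was 52.4% with quartiles of 45.2% and 61.2%, and its part in these shares was not tested. Nr1d1, without a GC box, and Cry1, with 3 copies, were both higher, while Npas2 held 1 copy and was lower. CACCC boxes stood before the higher members Per1, Cry1 and Nr1d1 and also before Npas2 and Per3, but not before Arntl or Nr1d2. Per2 had no window. A relation of the boxes to the direction of the members was not tested. A match describes letters and shows no binding.

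With Ad-KLF14, 4 of the 10 members were higher by at least 2-fold (Nr1d1, Per2, Per1 and Cry1), against 6.37% of all genes, and 1 was lower by as much (Npas2), against 8.99%. The other 5 lay within 2-fold. The median log2 ratio of the 10 was 0.67 on log2(FPKM + 1). The negative limb (7 genes) had a median of 1.08 with 5 genes above 0, and the positive limb (3 genes) a median of 0.08 with 2 above 0, a difference between the limbs of 1.0. The counting interval of the FPKM ratio, an exact Clopper-Pearson interval at 95% of the reads of both libraries that covers counting error only, held 1 for Arntl and for no other member.

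**Figure D1:**
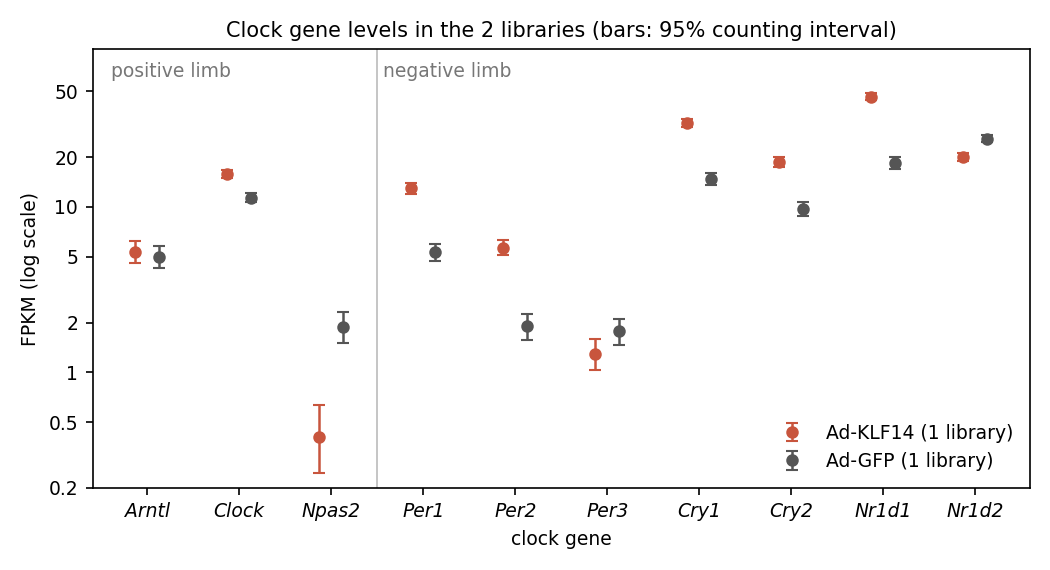
FPKM on a log axis of each clock gene in the Ad-KLF14 library (red) and the Ad-GFP library (grey), with the 95% exact Poisson interval of its reads as bars. Per1, Per2, Cry1, Cry2, Clock and Nr1d1 lie higher with Ad-KLF14, Npas2 and Nr1d2 lie lower, and the bars overlap for Arntl and Per3.

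Among the activators, the values went in different directions. Arntl, the partner that the loop cannot replace, was at 5.34 FPKM with Ad-KLF14 and 4.99 FPKM in the control, from 173 and 164 reads, which gives a ratio of 1.07 with a counting interval of 0.859 to 1.33. A difference in Arntl was therefore not detectable at this depth. Its interval reaches from 1.16-fold lower to 1.33-fold higher and covers counting error only, not differences between cultures.

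Clock, which encodes the usual partner of BMAL1, was at 15.9 versus 11.4 FPKM (ratio 1.40, interval 1.28 to 1.52, 1328 and 965 reads). Its difference was beyond counting error but within 2-fold, and 22.7% of all genes tested had a log2 ratio at least as high.

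Npas2, the paralog that can take the place of CLOCK, was the member farthest from a ratio of 1 on FPKM, though not on log2(FPKM + 1). It was at 0.408 versus 1.88 FPKM, 4.62-fold lower with Ad-KLF14 (interval 2.79 to 8.03), from 19 and 89 reads. On log2(FPKM + 1) the difference was -1.03, close to the 2-fold line, and 8.34% of all genes were at least as low. Npas2 passed the filter of a mean of 1 FPKM through its control level, and its interval of 0.245 to 0.637 FPKM with Ad-KLF14 did not overlap that of the control, 1.51 to 2.32 FPKM. Clock and Npas2 thus moved apart: Clock transcripts exceeded those of Npas2 by 39.1 times with Ad-KLF14 and by 6.06 times in the control, and Npas2 made up 2.5% and 14.2% of their summed FPKM.

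**Figure D2:**
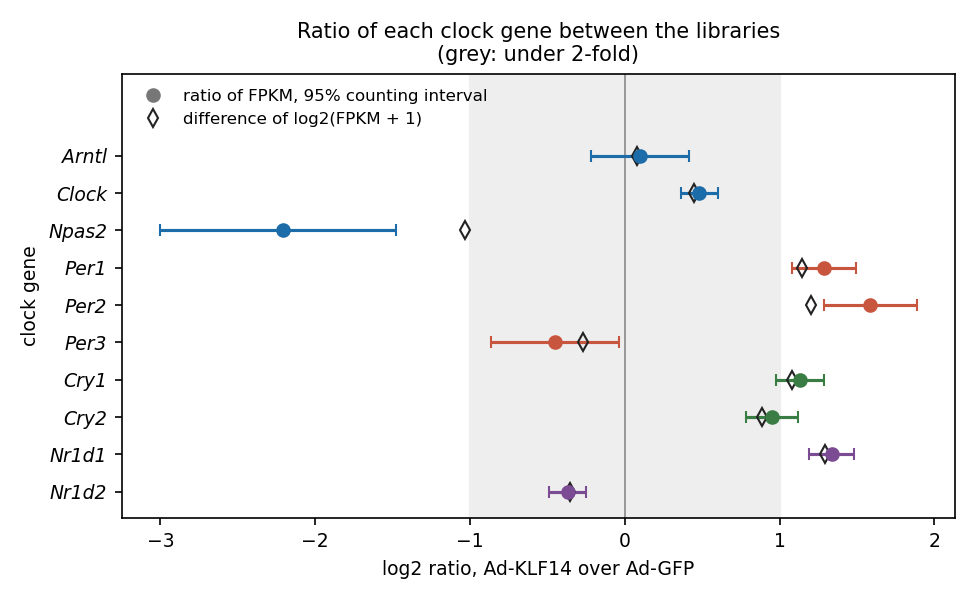
Log2 ratio of each clock gene, Ad-KLF14 over Ad-GFP, as the ratio of FPKM with its 95% counting interval (filled points, coloured by group) and as the difference of log2(FPKM + 1) (open diamonds). The grey band marks ratios under 2-fold. Npas2 lies at -2.21 on the FPKM ratio but at -1.03 with 1 FPKM added.

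The period genes encode the proteins that, with CRY, close the loop, and Per1 and Per2 are also known to respond to cAMP and glucocorticoid signals. Per1 was at 12.9 versus 5.31 FPKM, with 673 and 280 reads behind these values (2.44-fold higher, interval 2.12 to 2.81). Per2 was at 5.67 versus 1.89 FPKM, or 369 and 125 reads (2.99-fold higher, interval 2.44 to 3.70). Both ratios had overlapping counting intervals, and 4.68% and 3.94% of all genes were at least as high as Per1 and Per2.

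Per3, whose loss is known to affect the liver clock less than that of its paralogs, went the other way. It was at 1.30 versus 1.77 FPKM, or 86 and 119 reads (ratio 0.733, interval 0.549 to 0.976). Its interval of the ratio does not reach those of Per1 and Per2 and comes close to 1. In the control Per2 and Per3 were level, at 1.07 to 1, and with Ad-KLF14 Per2 was 4.38 times Per3. The share of Per3 in the summed FPKM of the period genes was 6.51% with Ad-KLF14 and 19.7% in the control, while the sum itself was 19.9 versus 8.97 FPKM, 2.22-fold higher.

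The cryptochromes, the stronger repressors of the CLOCK and BMAL1 pair, were both higher with Ad-KLF14. Cry1 was at 32.3 versus 14.8 FPKM, or 1087 and 504 reads (2.19-fold, interval 1.97 to 2.44). Cry2 was at 18.8 versus 9.72 FPKM, or 839 and 440 reads (1.93-fold, interval 1.72 to 2.18). Cry1 falls just beyond the 2-fold line at 1.08 on log2(FPKM + 1) and Cry2 just within it at 0.89, but their intervals overlap. Their proportions were nearly the same in both libraries, with Cry1 at 63.2% of the pair with Ad-KLF14 and 60.3% in the control, and the sum was 51.1 versus 24.5 FPKM.

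**Figure D3:**
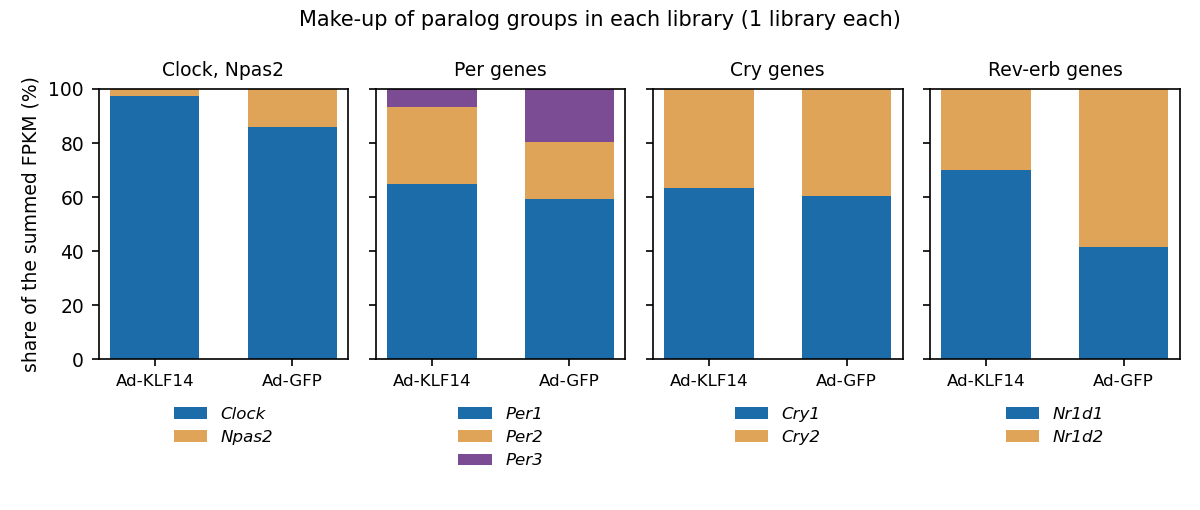
Share in percent of the summed FPKM that each paralog contributes, for Clock with Npas2, the Per genes, the Cry genes and the Rev-erb genes, in the Ad-KLF14 and the Ad-GFP library. The Cry pair keeps its proportions (63.2% and 60.3% Cry1), whereas Nr1d1 makes up 69.9% of the Rev-erb pair with Ad-KLF14 and 41.6% in the control.

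The Rev-erb genes encode the repressors REV-ERB alpha (Nr1d1) and REV-ERB beta (Nr1d2), heme-binding nuclear receptors of the loop's stabilising arm. Nr1d1 was at 46.6 versus 18.4 FPKM, 2.53-fold higher with Ad-KLF14 (interval 2.28 to 2.79), and 3.18% of all genes were at least as high. Nr1d2 was at 20.1 versus 25.9 FPKM, or 1039 and 1361 reads (ratio 0.774, interval 0.714 to 0.840). On these FPKM values, which for Nr1d1 rest on an unusual gene length described below, the pair changed places. Nr1d1 was 2.32 times Nr1d2 with Ad-KLF14, and Nr1d2 was 1.41 times Nr1d1 in the control. Their sum was 66.7 versus 44.4 FPKM, a ratio of 1.5.

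The implied gene length set Nr1d1 apart from the other members. Its FPKM values imply a gene model of 5254 bases, 1.93 times the longest reference transcript (2721 bases), as reads counted in 2 parts would give, so its reads were taken as 1364.5 and 548. Exons of Nr1d1 overlap those of the thyroid hormone receptor gene Thra by 263 bases on the opposite strand in the GENCODE annotation, and the implied length of Thra was likewise 1.83 times its longest reference transcript. Without strand, which the counting is not stated to use, reads from the overlap cannot be told apart. Thra was at 2.30 versus 5.0 FPKM, 2.18-fold lower with Ad-KLF14 (interval 1.59 to 3.06), so the neighbours went in opposite directions, and Thra was below Nr1d1 in both libraries. With undivided reads the interval of Nr1d1 was 2.35 to 2.71. Undivided reads from a transcript of 2721 bases would also put its level higher in both libraries. The place of Nr1d1 among the levels, its share of the Rev-erb pair and the sums that include it therefore depend on this length. Its ratio between the libraries does not. Exons of Cry2 also overlap the opposite-strand D930015M05Rik, by 295 bases, and those of Arntl the opposite-strand Gm45355, by 33 bases, and neither of these symbols is listed in the tables. For 8 of the other 9 members the implied length lay within 1% of a reference transcript, Clock at exactly 7478 bases, and for Npas2 it was 4180 bases where the reference has 4236.

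The order of the levels differed between the libraries. With Ad-KLF14 it ran from Nr1d1 over Cry1, Nr1d2, Cry2, Clock, Per1, Per2, Arntl and Per3 down to Npas2. In that library the neighbours Nr1d2 and Cry2 did not differ beyond counting error, and neither did Per2 and Arntl. In the control the order was Nr1d2, Nr1d1, Cry1, Clock, Cry2, Per1, Arntl, Per2, Npas2 and Per3. There Per1 and Arntl had overlapping intervals, and so did Per2 with Npas2 and Npas2 with Per3. Set against all genes tested, Nr1d1 stood above 84.0% of them with Ad-KLF14 and above 61.0% in the control, and Cry1 above 76.4% and 54.6%. Arntl stayed low in the range, above 30.2% and 26.9% of the genes.

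Summed over the limbs, the 7 negative limb genes were at 138 versus 77.8 FPKM (ratio 1.77) and the 3 activators at 21.7 versus 18.3 FPKM (ratio 1.19). The negative limb was thus 6.35 times the positive limb with Ad-KLF14 and 4.26 times in the control. Nr1d1 made up 33.8% of the negative limb sum with Ad-KLF14 and Nr1d2 made up 33.3% in the control. The share of genes past the 2-fold line depended little on the level. Among genes averaging 1 to 5 FPKM, the range of Npas2, Per2 and Per3, 7.47% lay above and 9.88% below, and 1 of these 3 members lay above (Per2) and 1 below (Npas2). From 5 to 20 FPKM, the range of Arntl, Clock, Per1 and Cry2, the shares were 6.88% and 10.1%, and 1 of the 4 (Per1) lay above. From 20 FPKM on they were 5.05% and 7.22%, and 2 of the 3 members there (Cry1 and Nr1d1) lay above.

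**Figure D4:**
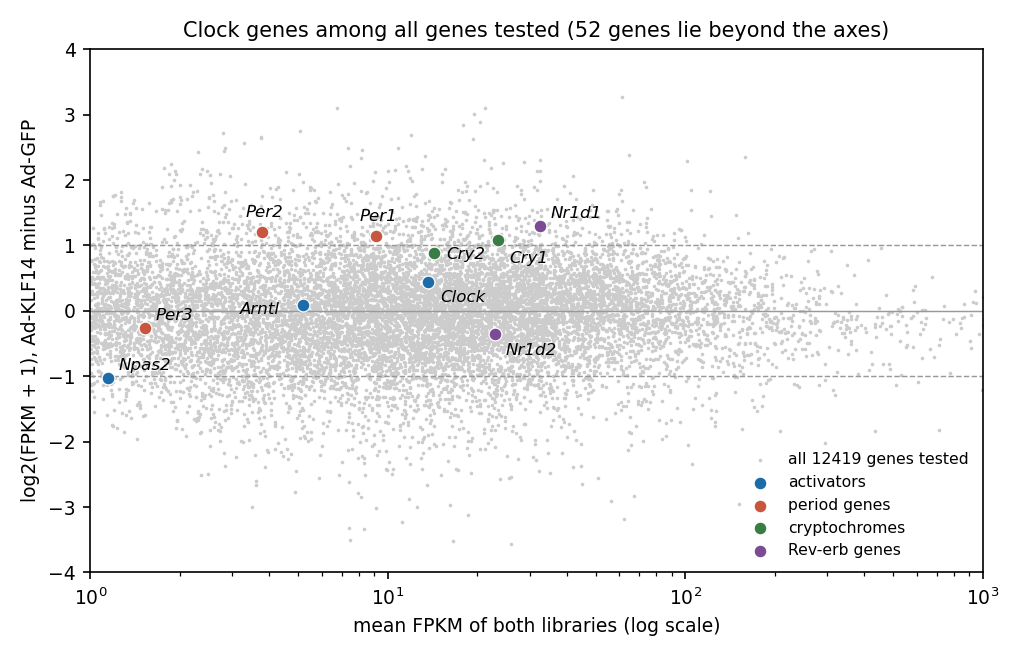
Difference of log2(FPKM + 1), Ad-KLF14 minus Ad-GFP, against the mean FPKM of both libraries on a log axis, for all 12419 genes tested (grey) and the 10 clock genes (coloured), with dashed lines at 2-fold. Nr1d1, Per2, Per1 and Cry1 lie above the upper line and Npas2 lies just below the lower line, and 52 genes are outside the plotted range.

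The accessory genes of the loop feed into it or read it out. Of 12 such genes 11 were measured, that is had a mean of at least 1 FPKM, 5 above 0 and 6 below. None was 2-fold apart on log2(FPKM + 1), beside 6.37% of all genes higher and 8.99% lower. In so short a list this count says little. The median was -0.26. Nfil3, which encodes a repressor at D-boxes, was 1.65-fold lower (17.5 versus 28.9 FPKM). Hlf, which encodes an activator at D-boxes, was at 2.09 versus 0.874 FPKM, 2.39-fold higher on FPKM (interval 1.25 to 4.84). It passed the filter of a mean of 1 FPKM through its level with Ad-KLF14. Its relatives Dbp and Tef were at 1.34 against 1.79 and at 17.5 versus 14.9 FPKM. Dbp and Nr1d1 are both known as E-box targets of the loop, and their ratios were 0.746 and 2.53, where the counting interval of Dbp, 0.427 to 1.29, held 1. Rora, which encodes an activating nuclear receptor of the loop, was at 5.77 versus 4.51 FPKM. Gm129, the older symbol of the repressor gene Ciart, was at 4.82 versus 7.41 FPKM, and Bhlhe40, which encodes another E-box repressor, at 63.1 versus 86.4 FPKM.

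Among 28 measured genes for PER and CRY turnover and the modification of clock proteins, 2 were higher by at least 2-fold, near the 6.37% of all genes. By as much 0 were lower, beside 8.99% of all genes, and the median was -0.25. The deacetylase gene Sirt1 was 2.72-fold higher (45.3 versus 16.6 FPKM). The deubiquitinase gene Usp2 was at 3.94 versus 0.457 FPKM, 8.62-fold higher (interval 2.05 to 76.9). It passed the filter of a mean of 1 FPKM through its level with Ad-KLF14. These values rest on at least 17 and 2 reads, the smallest whole numbers that fit, so the interval may be too wide. Under the 2-fold line, the phosphatase gene Ppp5c was 1.95-fold higher (70.7 versus 36.2 FPKM) and Btrc, whose product marks PER proteins for breakdown, was at 2.03 versus 4.64 FPKM.

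Lists of signals known to reach Per1 and Per2 went both ways, and their few genes past the 2-fold line are to be read beside the 6.37% of all genes above it and the 8.99% below. Of 14 measured cAMP and CREB responsive genes 9 were above 0, 2 passed the 2-fold line upward and 1 downward, and the median was 0.24. Nr4a3 was at 2.48 versus 0.235 FPKM and the coactivator gene Ppargc1a at 2.58 versus 0.558 FPKM. Both passed the filter of a mean of 1 FPKM through their level with Ad-KLF14, and the control value of Nr4a3 rests on at least 5 reads. By contrast Nr4a1, a receptor gene of the same family as Nr4a3, was 3.31-fold lower (1.92 versus 6.35 FPKM). The kinase gene Sik1 was 1.84-fold higher. Of 14 glucocorticoid responsive genes 8 were above 0, 2 passed the line upward and 1 downward, and the median was 0.11. The kinase gene Sgk1 was 2.86-fold higher (18.3 versus 6.40 FPKM) and Lpin1 2.62-fold higher, while the sulfotransferase gene Sult1e1 was 4.29-fold lower (24.8 versus 106 FPKM). Tat was 1.68-fold higher.

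Of 22 hepatic genes under clock control 16 were measured, 3 passed the line upward and 2 downward, beside 6.37% and 8.99% of all genes, and the median was -0.11. Usp2, also in the turnover list, and Alas1, the first enzyme of heme synthesis, were among the higher ones, the latter at 78.6 versus 31.5 FPKM, and Lonrf3 was 2.35-fold higher. Nampt, which makes the NAD precursor that feeds back on the clock through SIRT1, was 4.19-fold lower (10.8 versus 45.5 FPKM). Nampt and Sirt1, which act in the same arm, thus lay on opposite sides of 1. Cyp7a1 was listed at 0 in both libraries.

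**Figure D5:**
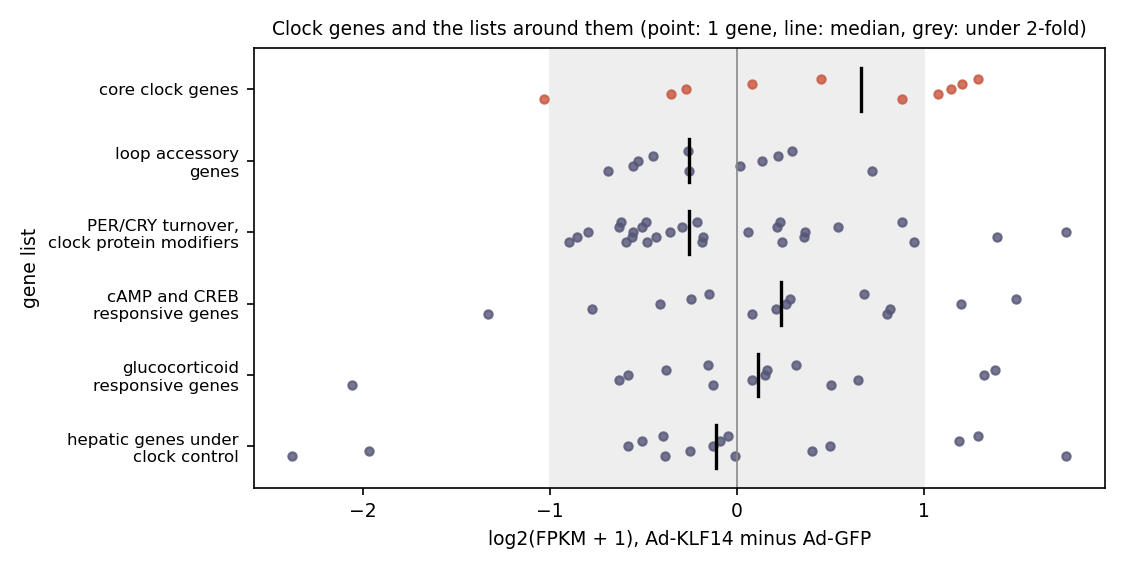
Difference of log2(FPKM + 1), Ad-KLF14 minus Ad-GFP, for each core clock gene (red) and each measured gene of 5 lists around the clock (blue), with the list's median as a black line and the range under 2-fold in grey. The core genes have a median of 0.67, and the medians of the other lists lie between -0.26 and 0.24.

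Clock genes are known to be expressed in most cell types, and any RNA of other liver cells in the cultures would enter these values. In such bulk samples, fewer cells of a type and less RNA per cell cannot be told apart. Macrophage markers, 6 of 7 measured, summed to 405 FPKM with Ad-KLF14 and 426 FPKM in the control, but they went both ways. Cd68 was at 160 versus 71.1 FPKM, Mpeg1 at 17.1 versus 40.1 FPKM and Cd14 at 217 versus 306 FPKM, and the Kupffer cell marker Clec4f was at 0.411 and 0.332 FPKM. Bile duct markers, 3 of 6 measured, summed to 235 versus 795 FPKM, nearly all from Spp1 and Cldn4, while Krt7 was at 0 in both libraries. Endothelial markers, 3 of 7 measured, summed to 8.13 and 9.70 FPKM, and stellate cell and fibroblast markers, 1 of 7, to 2.32 and 3.24 FPKM, with Des and Lrat at 0 with Ad-KLF14. None of 5 lymphocyte markers was measured, with Cd3e and Nkg7 at 0 in both. Of 6 retina markers, listed because the design text speaks of retina, 1 was measured. This was Gnat1, at 4.75 versus 0.881 FPKM, 5.39-fold higher with Ad-KLF14 (interval 3.4 to 8.94), which passed the filter through its level with Ad-KLF14. Opn1sw was at 0.298 versus 0.0367 FPKM, from at least 8 reads and 1 read, and Rcvrn and Crx were at 0 in both. The part of other cell types in the clock gene values was not tested.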

How the data were processed

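Trizol RNA and TruSeq RNA libraries (Illumina) were used, per the labels' protocols. The submitters' processing notes name Bowtie 0.12.2 and mm8, while the design text of the series mentions further aligners, retina and triplicates. The gene models, the counting rule, its use of strand and any pooling of cultures are not given in the sources used here. The authors deposited FPKM values, 1 table per library.

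Whole reads were recovered from them. For 99.9% of the 16944 genes above 0 in both libraries, the ratio was that of 2 whole numbers (product under 1000000000) times 1 constant, to a relative tolerance of 1e-11. The fraction of that constant gave the totals up to a whole factor, and the factor of 9 put 32.7% of 8487 mRNA genes with at least 100 reads within 1% of a GENCODE M21 transcript length, against at most 6.62% for any other factor up to 40. Reads of a member were divided by 2 where its implied length exceeded every reference transcript by over 10%. Ratios come from FPKM, and log2 differences from log2(FPKM + 1). The recovery and the intervals were tested on simulated data, with reads drawn by the counting model that the intervals assume. No gene length was doubled there, so the case of Nr1d1 and Thra was not covered. No p-value was computed.

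The rule names all 10 members and, per list, the genes at least 2-fold apart and the 4 with the largest difference. Dbp, Tef, Rora, Bhlhe40, Thra and Cyp7a1 were named after their values were seen, and 2 genes that the rule names are not reported here. Members and lists were chosen with earlier results of these data known. Alternatives were other pseudocounts (0.1 and 5 FPKM), filters and scalings. Python 3.11.15 and scipy 1.17.1 were used.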

Additional observations from a re-analysis of the deposited data

How the results depend on the processing

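All 10 members kept the sign of their log2 ratio in each of the 9 other settings that kept them. Other pseudocounts and filters cannot change a sign, however. The scalings moved the median of all genes by less than the smallest member difference (Arntl, 0.08), so the kept signs say little about robustness. Some members moved by more than that median: Npas2 stood at -1.37 when scaled to a sum of 1000000, against -1.03 in the main setting. With a pseudocount of 5 FPKM, 1 member (Nr1d1) was at least 2-fold higher and 0 lower, and the median of the members was 0.49. Among members with a mean of at least 5 FPKM, 7 were left, 0 were at least 2-fold lower and the median was 0.89, since Npas2, Per2 and Per3 drop out. Npas2 ranged from -1.97 (pseudocount of 0.1 FPKM) to -0.35 (5 FPKM), and Per2 from 1.53 to 0.63. Scaling by a trimmed mean, the upper quartile, a sum of 1000000 or a total without Klf14 (3.91% of the Ad-KLF14 reads, from its RefSeq length) gave 4 higher members and 1 lower and moved the median of all genes by at most 0.05. Removing a running median over 500 genes also gave 4 and 1. Depth limits Npas2 most, at 19 reads in the Ad-KLF14 library. No paired analysis was possible because each group holds 1 library.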
